A study of Mus musculus with 9 samples.

Results

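The genes described here are the constant genes of the immunoglobulin loci, Ighm, Ighd, Igha, Ighg1, Ighg2b, Ighg2c, Ighg3, Igkc and Iglc1, together with Jchain. They were found by their gene symbols in the deposited RNA-seq table of mouse colon, where they were 10 of 54146 listed genes. They had been picked because their levels differed between the genotypes of the study in an earlier look at the same mice, so their levels, shares and genotype differences are given as a description with no test.

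Antibodies are made of paired heavy and light chains. A B cell first carries IgM and IgD on its surface, and class switching then replaces the heavy chain constant gene in use with one for IgG, IgE or IgA while the variable part stays the same. In the gut, plasma cells of the lamina propria secrete mainly IgA, joined into dimers by the J chain. The epithelial receptor encoded by Pigr binds the J chain-containing molecules and carries them into the lumen. The constant genes and Jchain are transcribed in B lineage cells, while Pigr is transcribed in epithelium.

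RNA was sequenced from colon of 9 C57BL/6J mice at 15 wk of age, labelled as colonic mucosa, whereas the methods describe RNA from colonic crypts. All 9 mice carried the germline Min mutation of Apc on 1 allele, which causes intestinal tumors. The 5 ApcMin/+ mice (replicates 1 and 5 female, replicates 2, 3 and 4 male) were compared with 4 ApcMin/+; p16cis/cis mice (replicate 1 male, replicates 2, 3 and 4 female). The latter also carried, on both alleles, a knocked-in cis-element that draws DNA methylation to the p16 promoter. The cis-element is germline and not limited to a cell type, and no mice without ApcMin/+ were analyzed here. In bulk RNA, fewer cells of a type and less RNA per cell cannot be told apart.

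Levels are normalized counts, that is reads of a gene divided by a size factor of the mouse. The libraries held 13523500 to 17885918 reads on genes, 15745098 to 17885918 in ApcMin/+ mice and 13523500 to 14900228 in ApcMin/+; p16cis/cis mice. The mitochondrial share of reads was 8.74 to 15.6% in the former and 19.3 to 29.8% in the latter, so depth and mitochondrial share both separate the genotypes. Epithelial markers were high in every mouse, with summed normalized counts of 8 genes from 233189 to 356969, and all 8 were above 0 in all 9 libraries. Reads of the 10 members together were few, 158 to 4447 reads per ApcMin/+ mouse and 277 to 460 reads per ApcMin/+; p16cis/cis mouse.

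One library, that of ApcMin/+ replicate 4, was unlike the other 4 of its genotype. It held 158 reads of the members, against 991 to 4447 in the other ApcMin/+ mice, and it was the lowest of all 9 mice, ties at 0 included, for 6 of the 10 members. Its B cell genes summed to 239 normalized counts against 663 to 2249 in the other ApcMin/+ mice, its T cell genes to 43.2 against 325 to 689, and its stroma, muscle and vessel genes to 141 against 335 to 684. Epithelial genes summed to 356969 in it and to 233189 to 264094 in the other ApcMin/+ mice. The part of this composition in the levels below was not tested, and log2 differences of the members tested are given with and without this mouse.

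All 7 heavy chain genes lie in 1 cluster on the minus strand of chromosome 12 (GRCm38, coordinates and sequences from GENCODE M21), in the order Ighm, Ighd, Ighg3, Ighg1, Ighg2b, Ighg2c and Igha in the direction of transcription. Ighm (ENSMUSG00000076617.9) spans chr12:113418558-113422730 and Igha (ENSMUSG00000095079.6) spans chr12:113254830-113260236. Igkc (ENSMUSG00000076609.2) is on chr6:70726435-70726966, Iglc1 (ENSMUSG00000105906.1) on chr16:19061618-19062071 and Jchain (ENSMUSG00000067149.6) on chr5:88519809-88527891. Secreted IgM and IgA end in a tailpiece whose penultimate cysteine is the residue that binds the J chain. The last 18 codons before the stop codon of the secreted form are shown for these isotypes, for IgD, and for IgG2b as an IgG without a tailpiece, with the penultimate cysteine codon in capitals where there is one.
Ighm, chr12:113420870-113420923, minus strand: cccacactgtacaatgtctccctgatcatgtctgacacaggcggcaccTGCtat
Igha, chr12:113258771-113258824, minus strand: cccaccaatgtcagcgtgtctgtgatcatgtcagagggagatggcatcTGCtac
Ighd, chr12:113409581-113409634, minus strand: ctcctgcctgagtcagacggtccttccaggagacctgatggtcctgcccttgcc
Ighg2b, chr12:113306392-113306445, minus strand: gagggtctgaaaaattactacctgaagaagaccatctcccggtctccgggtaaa
The cysteine codon TGC stood at the penultimate position in Ighm and Igha and not in Ighd or in any of the 4 IgG genes.

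The IgG genes are close relatives, so it matters whether reads can be assigned to each. They differ most visibly in the hinge exon, the short stretch where the heavy chains are joined to each other by disulfide bonds. The 4 hinge exons are shown with their cysteine codons in capitals.
Ighg1, chr12:113329844-113329882, minus strand: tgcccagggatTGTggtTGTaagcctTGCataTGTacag
Ighg2b, chr12:113307261-113307326, minus strand: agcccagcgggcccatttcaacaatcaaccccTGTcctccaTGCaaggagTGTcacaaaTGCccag
Ighg2c, chr12:113288263-113288325, minus strand: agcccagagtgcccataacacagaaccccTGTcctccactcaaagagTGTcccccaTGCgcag
Ighg3, chr12:113360529-113360576, minus strand: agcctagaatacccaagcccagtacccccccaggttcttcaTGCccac
They held 4 cysteine codons in Ighg1 and in Ighg2b, 3 in Ighg2c and 1 in Ighg3. Over the exonic sequence of each member, every stretch of 100 bases occurred in no other annotated gene, and of the stretches of 50 bases between 94.5% (Ighg2c) and 100% were found in no other gene. The shared ones of the IgG genes were shared with other IgG genes, and how reads on those stretches were divided was not tested.

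Igha, the heavy chain of the secretory gut antibody, had 393, 952, 959, 100.4 and 688 normalized counts in ApcMin/+ replicates 1 to 5 and 107, 191, 129 and 262 in ApcMin/+; p16cis/cis replicates 1 to 4. Of the ApcMin/+ mice 4 lay above every ApcMin/+; p16cis/cis mouse, and replicate 4 lay below all of them. The log2 difference (ApcMin/+; p16cis/cis minus ApcMin/+, on log2(normalized count + 1)) was -1.55 ± 0.57 (SE) over 9 mice and -2.11 without ApcMin/+ replicate 4.

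Ighm, the heavy chain of naive B cells and of secreted IgM, had 139, 673, 681, 10.2 and 535 normalized counts in the ApcMin/+ mice and 68.2, 44.7, 93.2 and 54.8 in the ApcMin/+; p16cis/cis mice. Again 4 ApcMin/+ mice lay above the other genotype and replicate 4 below it, with a log2 difference of -1.70 ± 1.00 (SE), or -2.76 without that mouse. Ighd, spliced from the same long transcript as Ighm in naive B cells, had 35.7, 205, 131, 1.27 and 280 normalized counts against 18.9, 20.7, 66.1 and 7.83. The genotypes overlapped for Ighd also without ApcMin/+ replicate 4, since ApcMin/+; p16cis/cis replicate 3 exceeded ApcMin/+ replicate 1. Its log2 difference was -1.36 ± 1.18 (SE), and -2.52 without replicate 4.

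Of the IgG genes, Ighg2b had the highest level and the widest spread. It had 49.1, 595, 621, 1.27 and 99.9 normalized counts in the ApcMin/+ mice and 3.79, 6.38, 31.6 and 0 in the ApcMin/+; p16cis/cis mice. Replicates 2 and 3 of ApcMin/+ carried most of it, and the log2 difference was -3.86 ± 1.47 (SE), or -5.16 without replicate 4. Ighg2c, the IgG2a-class gene of the C57BL/6 strain, had 12.3, 69.4, 73.2, 0 and 31.8 against 0, 0, 12.02 and 1.57, with a log2 difference of -2.96 ± 1.21 (SE), or -4.01 without that mouse. Ighg3, used mostly in responses that do not need T cell help, had 1.12, 104, 54.6, 1.27 and 14.8 against 0, 0, 12.02 and 9.40, with a log2 difference of -1.98 ± 1.27 (SE), or -2.62 without it. Ighg2b, Ighg2c, Ighg3 and the light chain gene Iglc1 passed the filter on low values (at least 10 in at least 4 mice) mainly through the ApcMin/+ mice. Of the ApcMin/+; p16cis/cis mice, only replicate 3 reached 10 in any of these genes. Ighg1, typical of responses with T cell help, had 0, 68.5, 31.2, 0 and 7.95 against 2.53, 1.60, 19.5 and 4.70, and it did not pass the filter. In the ApcMin/+; p16cis/cis group, replicate 3 was the highest mouse for all 4 IgG genes.

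The kappa light chain gene Igkc had 363, 1276, 1378, 62.3 and 751 normalized counts in the ApcMin/+ mice and 208, 152, 298 and 216 in the ApcMin/+; p16cis/cis mice. Its pattern over mice was that of Ighm, with 4 ApcMin/+ mice above the other genotype, replicate 4 below it, and a log2 difference of -1.22 ± 0.73 (SE), or -1.97 without replicate 4. Iglc1, a lambda light chain constant gene, had 35.7, 32.3, 56.6, 6.36 and 48.8 against 3.79, 9.57, 13.5 and 6.27. Here replicate 4 of ApcMin/+ lay within the range of the ApcMin/+; p16cis/cis mice, and the log2 difference was -1.83 ± 0.58 (SE), or -2.34 without it. The further lambda constant genes Iglc2 and Iglc3 reached at most 45.4 and 31.2 normalized counts, both in ApcMin/+ mice. Ighe, the IgE gene, and Iglc4 were listed at 0 in all 9 mice, so a share of reads up to 1.68e-05 to 2.22e-05% (3 reads of a library) is possible for either.

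Jchain, which encodes the joining peptide of IgA dimers and IgM pentamers, had 77.0, 253, 257, 17.8 and 137 normalized counts in the ApcMin/+ mice and 12.6, 15.95, 16.5 and 18.8 in the ApcMin/+; p16cis/cis mice. Replicate 4 of ApcMin/+ fell within the narrow range of the other genotype, below its replicate 4. The log2 difference was -2.65 ± 0.64 (SE), and -3.28 without ApcMin/+ replicate 4.

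**Figure D1:**
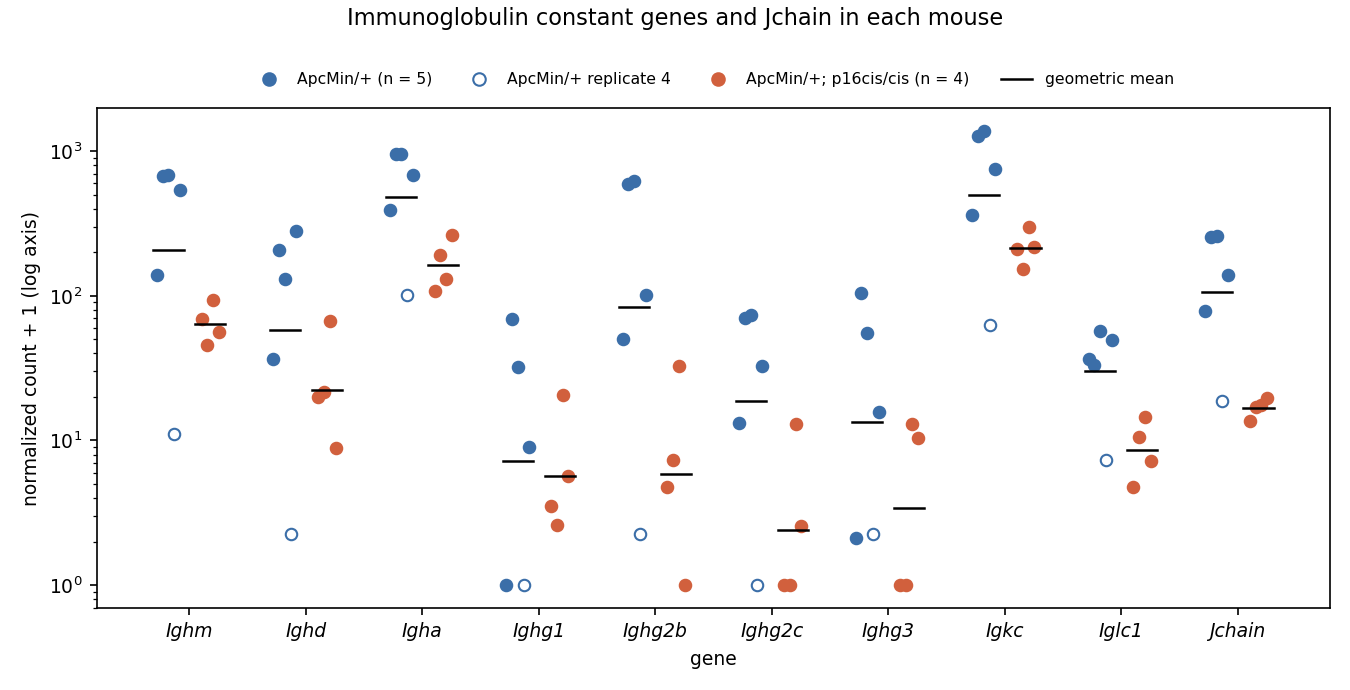
Normalized count + 1 on a log axis for each of the 10 members in each mouse, ApcMin/+ (blue, n = 5) and ApcMin/+; p16cis/cis (orange, n = 4), with the geometric mean as a line and ApcMin/+ replicate 4 as an open circle. The open circle is at or below the orange points for most genes, while the other ApcMin/+ mice are above them for 7 of the 10 genes.

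The genotypes overlapped for all 10 members over 9 mice, whereas of all genes tested 8.95% had the highest ApcMin/+; p16cis/cis value below the lowest ApcMin/+ value. Without ApcMin/+ replicate 4, 7 of the 10 members did not overlap, beside 13.6% of all genes tested. All 9 members tested had a negative log2 difference, from -1.22 to -3.86 with a median of -1.83, while the median over all 14410 genes tested was -0.00. With an adjusted p-value under 0.05 in limma and a fold change over 2 as the call, 1 of the 9 (Jchain) was called lower, beside 1.64% of all genes. Both count tests on the recovered reads called 5 of 9 lower (Igha, Ighg2b, Ighm, Iglc1 and Jchain), beside 1.84% of all genes in edgeR and 2.23% in DESeq2. Without ApcMin/+ replicate 4 limma called 8 of 9, all but Ighg3, beside 3% of all genes. Because the members were chosen on this contrast, these counts describe them and support nothing. With the mitochondrial share as a covariate limma called 0 of the 9 members, beside 0 of all 14410 genes tested. Of the members 0 had an unadjusted p-value under 0.05 in that limma fit, and their differences ran from -2.49 (Iglc1) to 1.02 (Ighg3). Since the mitochondrial share did not overlap between the genotypes, that fit has little left from which to tell the effects of share and genotype apart.

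**Figure D2:**
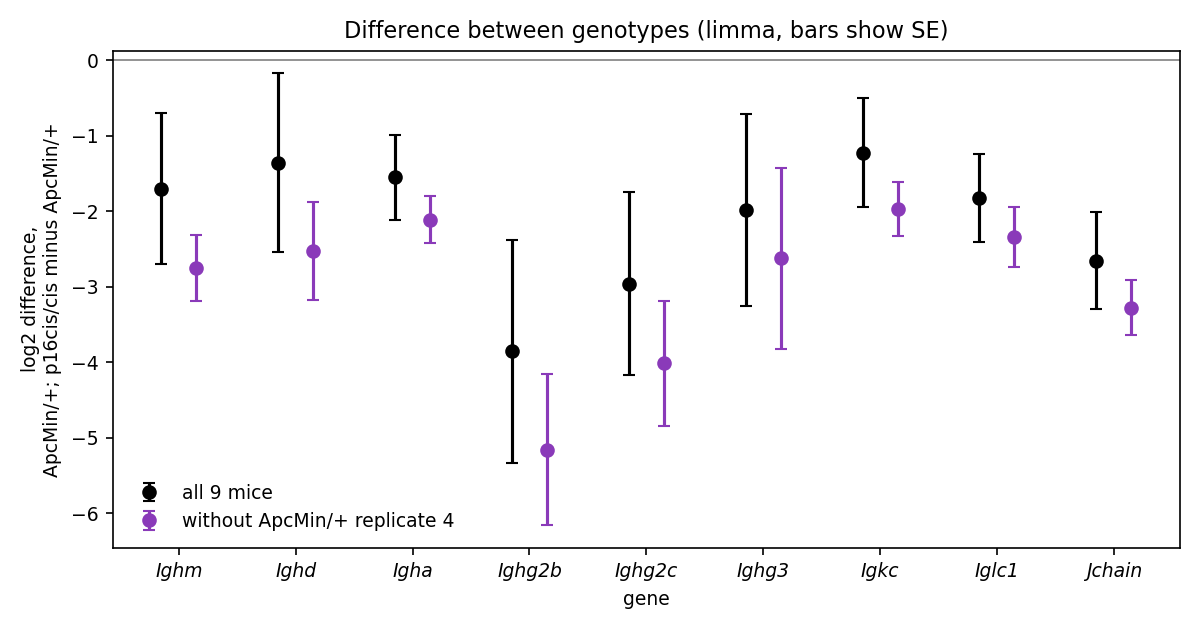
Log2 difference between the genotypes (ApcMin/+; p16cis/cis minus ApcMin/+, limma on log2(normalized count + 1), bars show SE) for the 9 members tested, over all 9 mice (black) and without ApcMin/+ replicate 4 (purple). All points are below 0, from -1.22 to -3.86 over 9 mice, and the bars shorten for most genes when that mouse is left out.

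The spread between mice of 1 genotype, pooled over both genotypes, was wide for these genes. The SD within genotype on the log2 scale ran from 1.01 (Iglc1) to 2.85 (Ighg2b) over the 9 members tested, whereas the median over all genes tested was 0.26. Every one of the 9 varied more than 95.9% of all genes. Among the genes of like mean level, Iglc1 varied more than 87.0% and Ighm more than 99.8%.

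For levels between genes, normalized counts were divided by the exonic length of the gene (all annotated transcripts merged, membrane-form exons included). Per kb, Igkc was highest in ApcMin/+ mice with 1440.2 ± 1069 (SD, n = 5), followed by Igha with 232 ± 139 and Ighm with 216 ± 166. Igkc exceeded Igha in 5 of 5 mice, but Igha exceeded Ighm in only 2 of 5. Before division by length (2668 bases for Igha and 1886 for Ighm) Igha was higher than Ighm in every mouse of both genotypes. The order of this pair thus depended on the length used. Lower on the same scale were Ighg2b (102 ± 115), Iglc1 (79.2 ± 42.4), Ighd (68.8 ± 61.0) and Jchain (58.9 ± 42.1), whose neighbors in this order did not differ beyond their spread. Ighg2c, Ighg3 and Ighg1 were lowest, with 28.2 ± 24.9, 14.0 ± 17.6 and 8.30 ± 11.3. In ApcMin/+; p16cis/cis mice the first places were the same, with 411 ± 113 (SD, n = 4) for Igkc, 64.6 ± 26.0 for Igha and 34.6 ± 11.1 for Ighm, and Ighg2b (3.90 ± 5.35) came after Jchain (6.35 ± 1.01).

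The isotype shares describe how the heavy chain RNA of a mouse was divided, per length, among Ighm, Ighd, Igha and the IgG genes. Igha took 54.9, 30.6, 32.4, 84.2 and 34.0% in the ApcMin/+ mice and 45.3, 65.6, 29.2 and 71.1% in the ApcMin/+; p16cis/cis mice. The means, 47.2 ± 22.9% (SD, n = 5) and 52.8 ± 19.2% (SD, n = 4), were closer to each other than single mice of a genotype were. With reads not divided by length they were 53.0 ± 22.2% and 59.6 ± 19.0%. The highest IgA share was that of ApcMin/+ replicate 4, where 79 of 90 heavy chain reads were Igha, a share of reads of 87.8% (95% Wilson interval 79.4 to 93.0%). Without this mouse the ApcMin/+ mean was 38.0%. Ighm took 28.0 ± 9.60% and 28.3 ± 9.19%, and Ighd 8.69 ± 6.65% and 11.3 ± 7.41%, again with overlapping groups.

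The IgG genes together took 10.5, 29.4, 28.9, 2.19 and 9.25% in the ApcMin/+ mice and 2.69, 2.74, 20.01 and 4.88% in the ApcMin/+; p16cis/cis mice. The high mice were ApcMin/+ replicates 2 and 3 and ApcMin/+; p16cis/cis replicate 3. In the former pair most of the IgG share was Ighg2b, with 19.1 and 20.9%, while in ApcMin/+; p16cis/cis replicate 3 it was divided among Ighg2b (7.11%), Ighg2c (5.47%), Ighg1 (4.55%) and Ighg3 (2.89%). That share rested on 50 of 242 heavy chain reads, 20.7% of reads with a Wilson interval of 16.04 to 26.2%. Among the light chain genes, Igkc took 92.9 ± 3.44% and 95.7 ± 2.10% of Igkc plus Iglc1 per length. The lowest of these Igkc shares were those of ApcMin/+ replicate 4 (89.3%) and replicate 1 (89.7%). This order depended on the genes counted. With the further lambda constant genes in the denominator, Igkc took 89.5 ± 2.72% and 92.3 ± 3.30%. It was then lowest in ApcMin/+ replicates 5 (86.7%) and 1 (87.1%), with 89.3% in replicate 4. Wilson intervals cover counting error only.

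**Figure D3:**
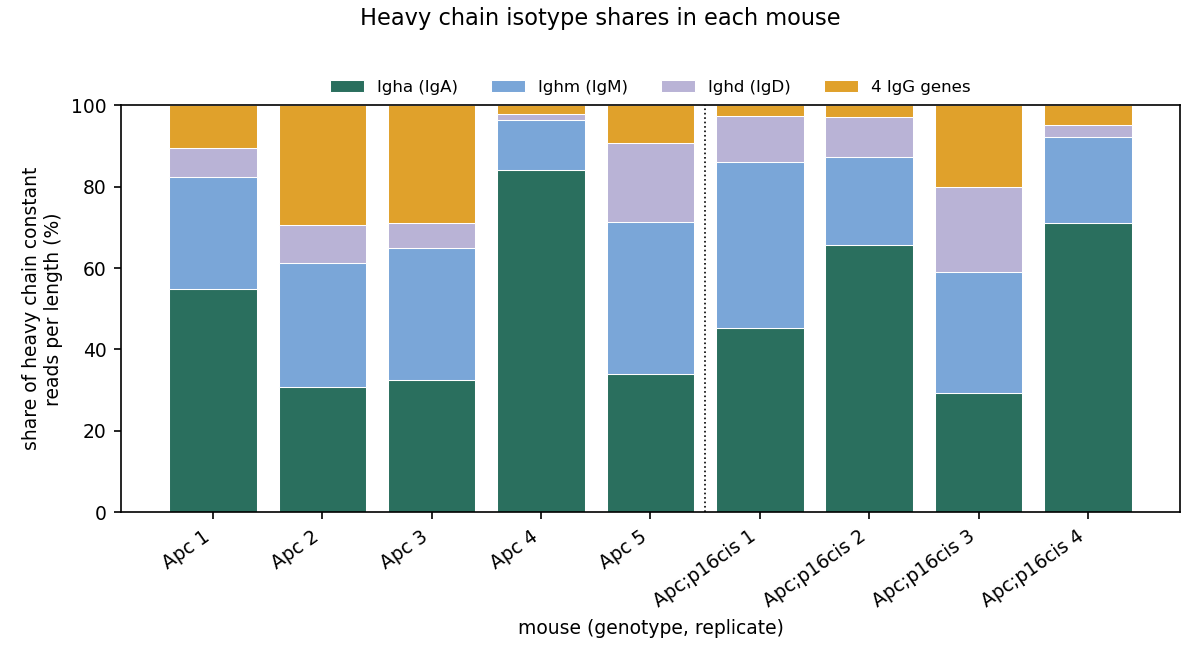
Share (%) of Igha, Ighm, Ighd and the 4 IgG genes summed among heavy chain constant reads divided by exonic length, 1 stacked bar per mouse, with ApcMin/+ mice (Apc 1 to 5) left of the dotted line and ApcMin/+; p16cis/cis mice (Apc;p16cis 1 to 4) right of it. Igha ranges from 29.2 to 84.2%, and the IgG part is large in ApcMin/+ replicates 2 and 3 and in ApcMin/+; p16cis/cis replicate 3.

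Some ratios within the immunoglobulin reads did not overlap between the genotypes, ApcMin/+ replicate 4 included, while the light chain share described below did. Of the single genes tested, 8.95% were lower in ApcMin/+; p16cis/cis mice without overlap, and how often ratios separate was not tested. The members in these ratios were chosen on this contrast, so the ratios are a description. Jchain made up 12.6, 13.5, 13.5, 13.9 and 10.1% of the reads of Jchain, Igha and Ighm in the ApcMin/+ mice and 6.71, 6.33, 6.92 and 5.61% in the ApcMin/+; p16cis/cis mice. The means were 12.7 ± 1.53% (SD, n = 5) and 6.39 ± 0.577% (SD, n = 4). The reads were few in the second group, 10 to 12 Jchain reads per mouse, so that single-mouse Wilson intervals, such as 3.69 to 11.9% in replicate 1 and 8.44 to 21.9% in ApcMin/+ replicate 4, overlapped across genotypes. In ApcMin/+ replicate 4, with 14 Jchain reads, the share lay with its own genotype while the level lay with the other.

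Variable genes are the other, highly diverse part of the same transcripts. Of the reads on the 218 listed variable genes and on the 9 constant genes, the variable genes took 14.0, 15.4, 15.9, 12.7 and 15.7% in the ApcMin/+ mice and 3.54, 7.29, 5.07 and 5.77% in the ApcMin/+; p16cis/cis mice. The means were 14.7 ± 1.35% (SD, n = 5) and 5.42 ± 1.56% (SD, n = 4), and the point estimates did not overlap. The Wilson intervals of the nearest mice did, at 8.48 to 18.7% in ApcMin/+ replicate 4 and 4.82 to 10.9% in ApcMin/+; p16cis/cis replicate 2. The counts behind them were 21 to 773 variable gene reads in ApcMin/+ mice and 12 to 24 in ApcMin/+; p16cis/cis mice. ApcMin/+ replicate 4 had 21 variable gene reads beside 144 constant gene reads, whereas ApcMin/+; p16cis/cis replicate 2 had 21 beside 267. The number of variable genes above 0 was 58, 139, 127, 15 and 103 against 10, 12, 17 and 14, in step with the number of reads.

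No single variable gene dominated in the libraries with the most variable gene reads. The leading gene took 3.81% of variable reads in ApcMin/+ replicate 2 (Igkv1-110), 5.43% in replicate 3 (Igkv10-96) and 5.96% in replicate 5 (Igkv8-30). The exception was ApcMin/+ replicate 1, where Iglv1 took 29 of 150 variable reads (19.3%, Wilson interval 13.8 to 26.4%). In the same mouse Iglc1 took 10.3% of Igkc plus Iglc1 per length. It took 2.88, 4.59, 10.7 and 7.07% in ApcMin/+ replicates 2 to 5 and 2.09 to 6.89% in the ApcMin/+; p16cis/cis mice. The Iglc1 share was thus as high in replicate 4, where it rested on 5 of 54 reads. Iglc2 and Iglc3 are not part of this share. In the mice with 12 to 24 variable reads the leading gene had 2 to 4 reads, too few to describe a repertoire.

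The light chain genes took 38.7, 32.9, 36.0, 37.5 and 32.6% of the light and heavy constant reads in the ApcMin/+ mice and 51.4, 37.8, 46.1 and 39.6% in the ApcMin/+; p16cis/cis mice. These shares overlapped, since ApcMin/+ replicate 1 exceeded ApcMin/+; p16cis/cis replicate 2.

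**Figure D4:**
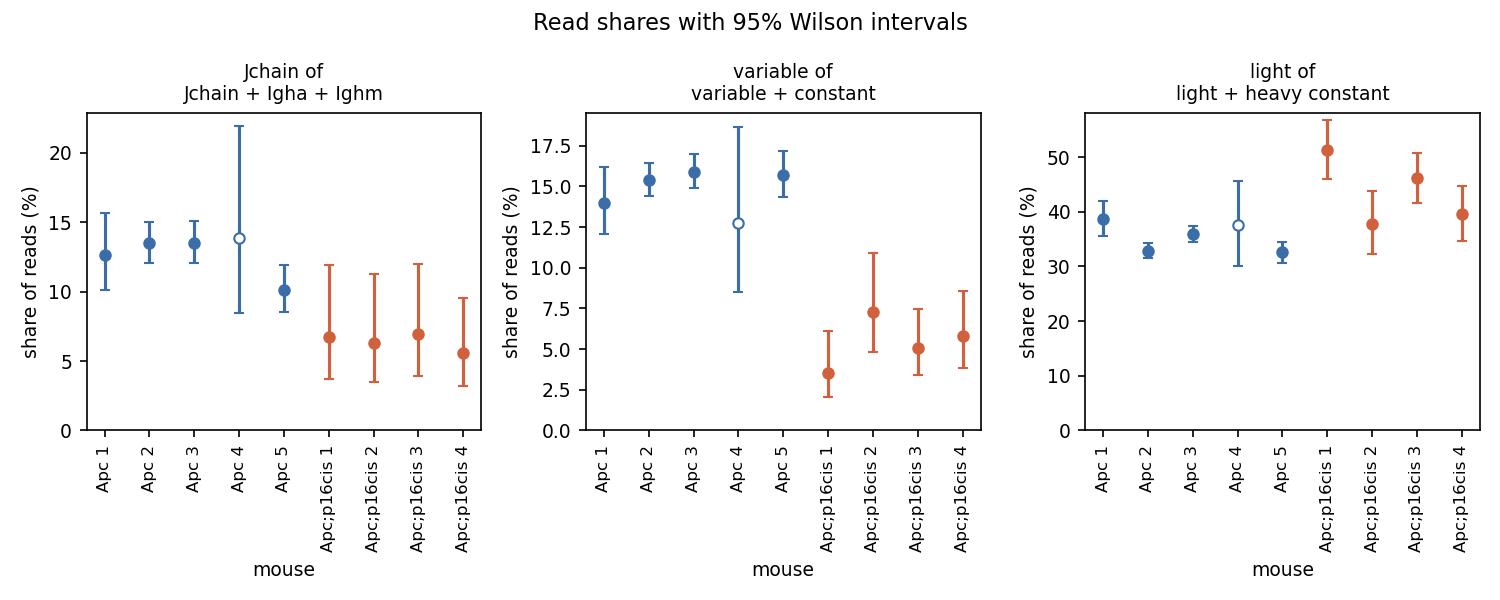
Share of reads (%) with 95% Wilson intervals in each mouse for Jchain among Jchain, Igha and Ighm (left), variable genes among variable and constant genes (middle) and light chains among light and heavy constant genes (right), with ApcMin/+ in blue, its replicate 4 open, and ApcMin/+; p16cis/cis (Apc;p16cis) in orange. The left and middle point estimates separate the genotypes (10.1 to 13.9% against 5.61 to 6.92%, and 12.7 to 15.9% against 3.54 to 7.29%), and the right ones do not.

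Levels were also compared from mouse to mouse. Over the 9 mice, log2(normalized count + 1) of Igha correlated with that of Jchain (Pearson r = 0.96, Spearman rho = 0.88) and of Igkc (r = 0.91, rho = 0.92), and Ighm with Ighd (r = 0.95, rho = 0.87). Ighm also correlated with Cd79a, a chain of the B cell receptor complex (r = 0.93, rho = 0.90), and Igha with Mzb1, a chaperone of antibody-secreting cells (r = 0.80, rho = 0.81). The members were chosen for a difference between genotypes that enters these levels, so these correlations are a description. With deviations from the genotype means in place of levels, r was 0.96, 0.90, 0.95, 0.91 and 0.66 and rho 0.90, 0.77, 0.80, 0.82 and 0.49, in the order named. Exact permutation of the mice within each genotype (two-sided, 2880 arrangements) gave p = 0.00104, 0.0267, 0.0104, 0.0167 and 0.0771 for r, or 0.00521, 0.0334, 0.0260, 0.0278 and 0.0771 adjusted over the 5 pairs. For rho it gave p = 0.00243, 0.0372, 0.0476, 0.0385 and 0.186, or 0.0122, 0.0595, 0.0595, 0.0595 and 0.186 adjusted (exact permutation). Within genotypes Igha with Jchain thus passed 0.05 after adjustment by both measures, 3 further pairs by r and not by rho, and Igha with Mzb1 by neither. The permutation within genotypes was chosen after seeing the data, so its p-values are part of the description and support nothing. Without the 2 mice farthest from the median of the first gene (ApcMin/+ replicates 2 and 3 for Igha, 3 and 4 for Ighm), r of the levels was 0.91, 0.79, 0.92, 0.91 and 0.63 over 7 mice. There rho was 0.75, 0.82, 0.82, 0.89 and 0.63, and no pair had an adjusted p-value of rho under 0.05 (exact permutation).

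Outside the immunoglobulin loci, the genes most like Igha over the 9 mice among 14399 ranked were Il7r (r = 0.98), the receptor chain for interleukin-7 on lymphocytes, Tmem167, Tmem186, Usp16 and Jchain (r = 0.98 to 0.96). The most similar to Ighm were Klhl6 (r = 0.98), known from B cell receptor signaling, then Serpina3g, Ikzf1, Cyfip2 and Gimap6 (r = 0.97). Ikzf1 encodes a lymphocyte transcription factor. These values rank genes over 9 mice and carry no test.

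Sex was not used to choose the members. None of the 9 members tested was called between males and females with genotype as a term (limma), with 0 at an unadjusted p-value under 0.05, and edgeR and DESeq2 also called 0, with 0 at that level. Of all genes tested 0.0486% were called. The log2 differences (male minus female) ran from -0.94 ± 0.59 (SE) for Iglc1 to 0.34 ± 1.40 (SE) for Ighg3, with the lowest adjusted p-value at 0.992. The exact permutation test over the 40 arrangements of sex within genotype (two-sided, smallest possible p = 0.025) gave p = 0.275 for Iglc1, 0.55 for Ighg1 and 0.7 to 0.975 for the other 8. For each member tested a 2-fold difference between sexes, 1 on the log2 scale, lies within 2 standard errors of 0, so it was not detectable here.

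Other genes of the B lineage were read in the same limma fit. Of 11 plasma cell genes 7 passed the filter on low values and 1, Prdm1, was called, with 71.2 ± 18.5 normalized counts (SD, n = 5) in ApcMin/+ mice against 27.9 ± 11.4 (SD, n = 4) in the other genotype (log2 difference -1.36 ± 0.30 SE, adjusted p = 0.0121). Prdm1 encodes the plasma cell regulator BLIMP-1 but is also expressed in gut epithelium, and it was highest (97.9) in ApcMin/+ replicate 4, where the members were lowest. Mzb1, by contrast, had 10.04, 42.8, 26.3, 1.27 and 23.8 normalized counts against 0, 3.19, 9.02 and 0, in the pattern of Jchain (log2 difference -2.55 ± 0.94 SE, adjusted p = 0.0806 in limma). Mzb1 and Irf4 reached 10 only in ApcMin/+ mice and passed the filter through them. DESeq2 called 3 of the 7 lower (Irf4, Mzb1 and Prdm1) and edgeR 2 (Irf4 and Prdm1), while limma without ApcMin/+ replicate 4 called 4 (Irf4, Mzb1, Pou2af1 and Prdm1). Of all genes 2.23%, 1.84% and 3% were called lower in these fits, and 1.64% in limma over 9 mice. Of the 7 genes 6 had a negative log2 difference, with a median of -1.36. Tnfrsf17, the BCMA receptor of plasma cells, was at 0 in 7 mice and at 0.951 and 0.976 normalized counts in ApcMin/+ replicates 2 and 3. Sdc1, a plasma cell surface marker that epithelium also makes, had 4170 ± 666 and 3377 ± 438 normalized counts (log2 difference -0.30 ± 0.13 SE, limma adjusted p = 0.134).

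Of the 10 genes of the secretory apparatus that epithelium shares, all were tested and Fkbp11, a folding enzyme of the endoplasmic reticulum, was called higher, at 503 ± 138 (SD, n = 4) in ApcMin/+; p16cis/cis against 211 ± 39.6 (SD, n = 5) in ApcMin/+ mice (limma adjusted p = 0.00532), a direction in which 1.83% of all genes were called. It moved opposite to the members, and the median log2 difference of this list was -0.08.

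Of 20 B cell genes 18 were tested, and 17 had a negative log2 difference, with a median of -1.26 beside -0.00 over all genes. Cr2, the complement receptor of mature B cells, was called lower, with 16.7, 99.8, 39.0, 2.54 and 89.7 normalized counts against 1.26, 1.60, 9.02 and 0 (log2 difference -3.42 ± 0.96 SE, limma adjusted p = 0.0308). Cr2 reached 10 in 4 mice, all of them ApcMin/+, and so passed the filter only through the genotype in which it was high. The call was lost in 6 of the 9 fits that left out 1 mouse (adjusted p up to 0.0954). Ms4a1, which encodes CD20, had a log2 difference of -1.98 ± 0.76 (SE), and Cd79a one of -2.19 ± 1.11 (SE), neither called over 9 mice (limma adjusted p = 0.0914 and 0.193). In Ms4a1 and Cd79a, ApcMin/+ replicate 4 and ApcMin/+; p16cis/cis replicate 4 were the lowest mice. Without ApcMin/+ replicate 4, 8 of the 18 were called lower, Cd79a and Ms4a1 among them, beside 3% of all genes. DESeq2 called 5 lower (2.23% of all genes) and edgeR 3 (1.84%), and limma over 9 mice called 1.64% of all genes lower.

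Of the 10 class switching and germinal center genes 7 were tested and 0 were called in limma, 2 with an unadjusted p-value under 0.05. DESeq2 and edgeR also called 0 of them. Of 17 genes that induce, sustain or guide IgA cells 11 were tested and 0 were called in limma, 3 with an unadjusted p-value under 0.05, while edgeR called 0 and DESeq2 called 3 (Cxcr5, Itga4 and Tnfrsf13c). Limma without ApcMin/+ replicate 4 called the same 3 lower. Of all genes 2.23% were called lower in DESeq2 and 3% in limma without that mouse. Tnfsf13, which encodes APRIL, had 255 ± 33.4 and 221 ± 47.4 normalized counts, and Tnfsf13b, which encodes BAFF, 129 ± 10.7 and 126 ± 29.1 (limma adjusted p = 0.379 and 0.851). Ccl28, the epithelial chemokine that draws IgA cells to the colon, had 4225 ± 649 and 4031 ± 300.3 (adjusted p = 0.781), while its receptor Ccr10 was low in every mouse, between 4.51 and 15.7. Cxcl13, the B cell chemokine of follicles, had 3.41 to 47.0 and 6.38 to 18.03 normalized counts and was highest in ApcMin/+ replicate 4.

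Pigr, which carries J chain-bound IgA and IgM across the epithelium, was among the abundant genes of every mouse, with 109742 ± 13417 normalized counts (SD, n = 5) in ApcMin/+ mice, against 139931 ± 11237 (SD, n = 4) where p16cis/cis was added. Its log2 difference was 0.36 ± 0.22 (SE, limma adjusted p = 0.283). Fcgrt, the neonatal Fc receptor that binds IgG, had 1632 ± 430 and 1069 ± 109 normalized counts, a log2 difference of -0.57 ± 0.18 (SE) with a limma adjusted p of 0.0469 that missed the fold change of 2. Of the 10 transport and receptor genes 6 were tested and 0 were called in limma, 2 with an unadjusted p-value under 0.05. The count tests called 0 (edgeR) and 1 (DESeq2, Fcgr2b lower), beside 1.84% and 2.23% of all genes called lower. Limma without ApcMin/+ replicate 4 also called Fcgr2b lower, beside 3% of all genes.

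Markers of other cell types stood beside the members as follows, with 1.64% of all genes called lower in limma over 9 mice. Of the T cell genes 0 of 5 tested were called in limma, DESeq2 or edgeR, with 0 at an unadjusted p-value under 0.05 in each, and summed levels were 43.2 to 689 in ApcMin/+ and 194 to 348 in ApcMin/+; p16cis/cis mice. Over 9 mice 3 of the 5 had a negative log2 difference in limma, with a median of -0.19. Without ApcMin/+ replicate 4 all 5 did, with a median of -0.92. In that fit 1 had an adjusted p-value under 0.05 and 0 were called. Of the myeloid genes Lyz2, a lysozyme of macrophages, was called lower (78.8 ± 23.5 against 26.1 ± 9.77, limma adjusted p = 0.00745), whereas Cd68, another macrophage marker, had 33.5 ± 7.82 against 65.2 ± 34.2 (log2 difference 0.85 ± 0.33 SE, limma adjusted p = 0.0903). Of the 4 myeloid genes tested 3 had a negative log2 difference, and the 5 listed summed to 104 to 205 against 105 to 175. Limma without ApcMin/+ replicate 4 called 2 of the 4 lower (Csf1r and Lyz2), beside 3% of all genes. Of the stroma, muscle and vessel genes Col3a1, a collagen of fibroblasts, was called lower (63.2 ± 43.6 against 8.20 ± 6.74, limma adjusted p = 0.0414), a call lost in 6 of 9 fits that left out 1 mouse. All 7 tested genes of that list had a negative log2 difference, with a median of -1.47, lower than that of the B cell genes. Without ApcMin/+ replicate 4 limma called 4 of them lower (Acta2, Col3a1, Myh11 and Pecam1), beside 3% of all genes. The 8 genes of that list summed to 141 to 684 in ApcMin/+ and 95.6 to 242 in ApcMin/+; p16cis/cis mice, and the vessel marker Cdh5 was at 0 in all 4 of the latter. Of the epithelial genes Slc26a3, a chloride exchanger of mature colonocytes, was called lower (10376 ± 2772 against 4489 ± 1558, limma adjusted p = 0.00848), while Epcam was not (log2 difference -0.38 ± 0.14 SE, limma adjusted p = 0.0938). The part of these cell types in the levels of the immunoglobulin genes was not tested.

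**Figure D5:**
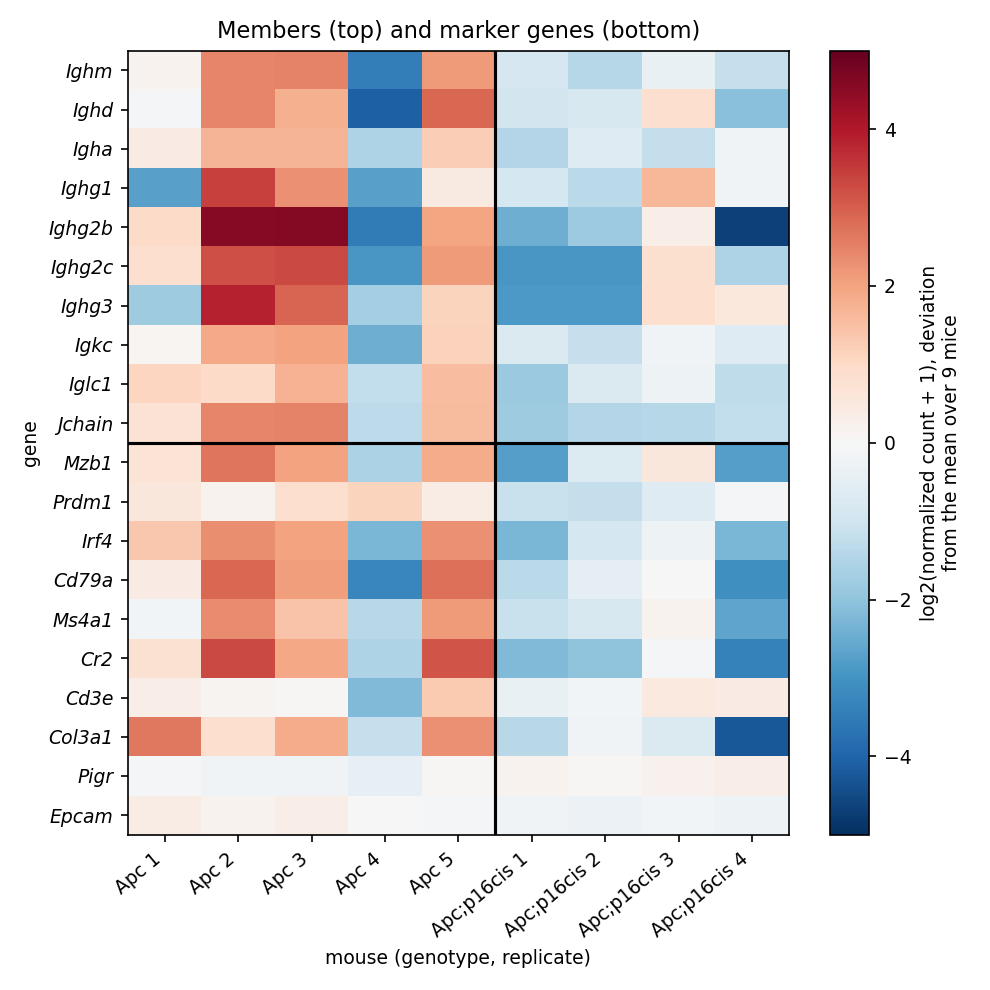
Deviation of log2(normalized count + 1) from the mean over 9 mice for the 10 members (above the line) and 10 other genes (below), with ApcMin/+ mice left and ApcMin/+; p16cis/cis mice (Apc;p16cis) right of the vertical line. The members, Mzb1, Irf4 and the B cell genes Cd79a, Ms4a1 and Cr2 are high in ApcMin/+ replicates 2, 3 and 5 and low in its replicate 4, while Prdm1 is highest in that replicate and Pigr and Epcam vary little.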

How the data were processed

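RNA-seq of colon from 5 ApcMin/+ and 4 ApcMin/+; p16cis/cis mice was analyzed, each mouse being 1 replicate named by its label. The authors deposited signal values, gene counts divided by a size factor per mouse. Per the methods, reads were aligned with BOWTIE2, gene levels came from RSEM and the genotypes were compared with DESeq2. Versions and genome build are not given in the sources used here. Gene models and sequences came from GENCODE M21 (GRCm38), where 52480 of 54146 identifiers matched with their version and all 10 members did.

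Dividing by the value of 1 read gave whole reads for 100% of positive values (tolerance 0.01), 13523500 to 17885918 per mouse. limma 3.58.1 (R 4.3.3, trended variances, genotype as the only term) was run on log2(normalized count + 1) for the 14410 genes with at least 10 in at least 4 mice, with Benjamini-Hochberg adjustment, calling an adjusted p-value under 0.05 with a fold change over 2. Alternatives on those reads were edgeR 4.0.16 (quasi-likelihood, TMM) and DESeq2 1.42.0 (Wald). On simulated counts for the genotype comparison over 14410 genes with 200 changed by 2 on the log2 scale, 89.5% were called and 2.72% of calls were unchanged genes. Permutation tests and Wilson intervals used scipy.

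The members and gene lists were chosen with earlier results of these data known. The text names all members, list genes called, list genes chosen for their role (some of which are not reported here), and the 5 genes most like Igha and Ighm. Irf4, Cd68, Cdh5, Epcam, Iglc2, Iglc3, Iglc4, Ighe, the leading variable genes and list genes called in an alternative were named after their values were seen. The labels number the mice within each genotype and the same numbers name different mice, so numbers were not used as pairs.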

Additional observations from a re-analysis of the deposited data

Results flagged for a closer look

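A mouse was looked at again where its gap to the nearest other mouse of its genotype was an unusually large part of the range of that group. Of 58 groups of values checked 6 met this rule, and chance alone gives about 1 in 20 for independent, normally distributed values. These groups are counts, sums and shares that partly hold the same reads, so the 6 cannot be set against that rate. ApcMin/+; p16cis/cis replicate 3 was far above the other 3 mice of its genotype in Ighg2c (12.02 normalized counts against 0 to 1.57), in the IgG share of heavy chain reads per length (20.01% against 2.69 to 4.88%) and in the summed further constant genes Ighe, Iglc2, Iglc3 and Iglc4 (22.5 normalized counts against 4.70 to 6.31). ApcMin/+; p16cis/cis replicate 4 was far above the others in the summed myeloid genes (175 against 105 to 116), and replicate 2 in the summed stroma, muscle and vessel genes (242 against 95.6 to 116). ApcMin/+ replicate 4 was far above the other 4 ApcMin/+ mice in the summed epithelial genes (356969 against 233189 to 264094).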

How the results depend on the processing

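Over 9 mice limma called 1 member and 6 list genes, beside 3.48% of all genes called in either direction. The number of members called was 5 in edgeR and 5 in DESeq2, 2 with reads scaled to nuclear genes (beside 1.02% of all genes called lower), 2 with sex as a covariate (1.2%), 3 in females only (0.722%), and 0 with the mitochondrial share as a covariate (0%), and it ran from 1 to 8 when 1 mouse was left out, 8 being without ApcMin/+ replicate 4 and 2 without ApcMin/+; p16cis/cis replicate 3 (3% and 1.74% of all genes). Jchain was called in every one of these fits except that with the mitochondrial share. The number of list genes called was 16 in DESeq2 (4.14% of all genes in either direction) and 11 with no fold change threshold (16.9%). It was 0 with the mitochondrial share (0%), and 4 to 26 when 1 mouse was left out (26 without ApcMin/+ replicate 4, beside 5.24%). With the replicate block, 2 members (Ighg2b and Jchain) and 10 list genes were called, beside 1.62% of all genes called lower and 3.28% called in either direction. Same-numbered mice did not deviate together (mean correlation 0.02, range -0.18 to 0.14), so the block pairs nothing known. The median log2 difference of the members tested stayed negative under every alternative, from -1.30 to -2.62 when 1 mouse was left out and -1.31 with nuclear scaling. The mean Igha share ran from 38.0 to 51.4% in ApcMin/+ and from 46.7 to 60.7% in ApcMin/+; p16cis/cis mice when 1 mouse was left out. The median difference between sexes changed sign, from -0.76 to 0.57, with the mouse left out, and 0 members were called between sexes in any fit. The correlation of Igha with Mzb1 had r = 0.63 without the 2 mice farthest from the median (adjusted exact permutation p = 0.132 over 7 mice) and r = 0.66 with the mice permuted within genotype (0.0771), an alternative chosen after seeing the data, while the adjusted p-values of r for the other 4 pairs stayed under 0.05 under each alternative (exact permutation). Those of rho did not. Without the 2 farthest mice they were 0.0828 for Igha with Jchain and 0.0569 for the other 3 of these pairs (exact permutation). The cause of these changes was not tested. The members had 158 to 460 reads in each ApcMin/+; p16cis/cis mouse and in ApcMin/+ replicate 4, which limits the precision of shares in those mice.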
